A study of Mus musculus with 24 samples.

Results

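MC38 tumours grown from Chek2 knock-out cells were compared with MC38 tumours grown from the parental cells, in mice that received PBS and no antibody. MC38 is a mouse colon carcinoma line. The comparison uses 6 of the 24 libraries of the series: 3 from tumours labelled CHEK2 knock-out (KO) and 3 from tumours labelled parental CHEK2-WT (WT), all with PBS as the treatment. The other 18 libraries are the same 2 genotypes of MC38 under anti-PD-1 and both genotypes of the melanoma line B16 under PBS or anti-PD-1, with 3 libraries in each group. They enter below only where the effect of the knock-out was set against the effect under anti-PD-1 or in B16. RNA came from whole tumour tissue, so each library mixes cancer cells with cells of the host mouse, whose own genotype at Chek2 the labels do not give. The way the gene was knocked out, the number of clones, the strain, sex and age of the mice and the time of collection are not given in the sources used here. Whether each library stands for its own animal is not stated in the labels, and the p-values therefore measure the spread between these libraries, which may be technical. In bulk tissue, fewer cells of a type and less RNA per cell cannot be told apart.

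Chek2 encodes CHK2, a kinase that is activated by ATM at DNA double-strand breaks and passes the signal to p53, to the CDC25 phosphatases and to repair proteins, which halts the cell cycle. In tumours, cytotoxic T cells and natural killer (NK) cells release interferon-gamma, which induces the chemokines CXCL9 and CXCL10 and the machinery of antigen presentation. Cancer cells short of oxygen or amino acids switch on other programmes, those of HIF-1 and of ATF4, the transcription factor of the integrated stress response. PD-1 is an inhibitory receptor of activated T cells, and the antibody given to the other MC38 tumours blocks it.

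Values are FPKM, fragments scaled to transcript length and library size. Log2 differences are KO minus WT of log2(FPKM + 1), given ± their standard error, and understate the change of genes at low levels. A gene was called when its limma p-value, adjusted over all tested genes by the Benjamini-Hochberg method, was under 0.05. Of 13391 tested genes 3306 were called, which is 24.7% of them: 1692 higher in KO (12.6%) and 1614 lower (12.1%). The median difference over all tested genes was 0.0058 on the log2 scale. Without WT replicate 2 the count was 2112, with 1096 higher and 1016 lower. The counts for gene groups below are to be read against these shares. In 40.5% of tested genes the 3 KO and the 3 WT values did not overlap.

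The promoters of 7 genes from the main groups are shown first. They were picked because each holds a short sequence bound by factors of the interferon, hypoxia or amino acid response, so its presence in them is no finding. Ctss, a gene of the MHC class II group, is shown for the interferon sequence, which the other class II genes with a promoter window lacked. They are the 250 bases before the RefSeq start of the gene in GRCm38.p6, 5′ to 3′ on the strand of the gene. For Cxcl9 (chr5:92328080-92328329, minus strand), Cxcl10 (chr5:92348890-92349139, minus strand) and Ctss (chr3:95526536-95526785, plus strand), the capitals mark the core of the interferon-stimulated response element, GAAANNGAA on either strand.
Cxcl9: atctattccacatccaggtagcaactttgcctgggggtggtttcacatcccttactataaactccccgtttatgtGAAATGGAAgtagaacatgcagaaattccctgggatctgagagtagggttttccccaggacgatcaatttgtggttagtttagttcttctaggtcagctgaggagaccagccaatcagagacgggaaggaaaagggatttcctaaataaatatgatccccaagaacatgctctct
Cxcl10: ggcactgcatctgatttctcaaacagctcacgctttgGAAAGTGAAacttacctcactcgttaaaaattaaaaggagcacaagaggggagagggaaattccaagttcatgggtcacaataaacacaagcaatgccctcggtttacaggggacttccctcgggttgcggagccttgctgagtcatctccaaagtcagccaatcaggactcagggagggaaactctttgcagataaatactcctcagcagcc
Ctss: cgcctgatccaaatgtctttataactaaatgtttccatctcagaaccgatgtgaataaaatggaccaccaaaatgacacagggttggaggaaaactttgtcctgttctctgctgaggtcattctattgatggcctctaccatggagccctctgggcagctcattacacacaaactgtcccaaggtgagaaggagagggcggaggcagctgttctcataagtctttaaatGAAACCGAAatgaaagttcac
For Ero1l (Ero1a in RefSeq, chr14:45318573-45318822, minus strand) and Ddit4 (chr10:59951771-59952020, minus strand), the capitals mark the core of the hypoxia response element, ACGTG on either strand.
Ero1l: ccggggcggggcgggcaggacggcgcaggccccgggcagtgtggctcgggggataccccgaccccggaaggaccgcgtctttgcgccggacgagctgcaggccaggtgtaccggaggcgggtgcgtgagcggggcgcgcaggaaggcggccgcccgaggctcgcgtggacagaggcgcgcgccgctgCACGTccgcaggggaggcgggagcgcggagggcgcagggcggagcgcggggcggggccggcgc
Ddit4: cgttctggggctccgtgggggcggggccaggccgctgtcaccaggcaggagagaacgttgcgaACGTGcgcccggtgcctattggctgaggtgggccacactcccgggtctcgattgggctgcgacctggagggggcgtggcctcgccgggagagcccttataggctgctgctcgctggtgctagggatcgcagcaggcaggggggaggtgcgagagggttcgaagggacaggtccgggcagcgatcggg
For Fgf21 (chr7:45615491-45615740, minus strand) and Slc7a11 (chr3:50443614-50443863, minus strand), the capitals mark the element bound by ATF4 together with C/EBP proteins, TGATGNAA on either strand. This pair was chosen after its values were seen.
Fgf21: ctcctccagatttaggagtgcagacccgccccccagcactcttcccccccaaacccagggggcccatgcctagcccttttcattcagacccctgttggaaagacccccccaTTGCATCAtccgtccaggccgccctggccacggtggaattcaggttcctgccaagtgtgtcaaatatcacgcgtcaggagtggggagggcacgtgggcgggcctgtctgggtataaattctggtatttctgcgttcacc
Slc7a11: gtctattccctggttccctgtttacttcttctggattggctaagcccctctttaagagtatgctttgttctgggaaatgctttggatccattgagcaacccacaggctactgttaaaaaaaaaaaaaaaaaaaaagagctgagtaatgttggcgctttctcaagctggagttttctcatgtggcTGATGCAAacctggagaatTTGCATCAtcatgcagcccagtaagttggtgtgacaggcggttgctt

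Counted over windows of 300 bases that run to 50 bases past the start, the interferon core lay in 11 of the 14 interferon-gamma induced genes with a window and in 8.56% of 32851 RefSeq windows. The related site TTCNNNGAA lay in 6 of those 14 and in 8.30% of all windows. Of 6 MHC class II genes with a window, 1 held the interferon core, Ctss, and 0 held TTCNNNGAA. The hypoxia core lay in 13 of 17 HIF-1 target genes and in 19.6% of all windows, and the ATF4 element in 10 of 22 genes of the amino acid response and in 3.97% of all windows. Among the called members with a window, the hypoxia core was present in 6 of 7 and the ATF4 element in 8 of 17. A match describes these letters in this window and shows neither binding nor use of the site.

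The 6 libraries were close in overall composition. FPKM summed to between 310868 and 339409 per library, and 13015 to 13319 genes reached 1 FPKM. Pearson's r across genes was 0.990 to 0.992 between WT libraries, 0.988 to 0.992 between KO libraries and 0.980 to 0.985 across the groups. KO replicate 1 stood apart from the other KO libraries in tissue markers. Skeletal muscle genes summed to 182 FPKM in KO replicate 1, 33.3 and 4.01 in KO replicates 2 and 3, and 49.3, 3.77 and 3.58 in the WT libraries. Fat cell genes summed to 89.5 FPKM in it and to between 7.27 and 29.2 in the others. Erythroid and platelet genes summed to 306.5 FPKM in KO replicate 1 and to 295.7 to 304.8 in WT, but to 78.8 and 87.8 in KO replicates 2 and 3. Of the erythroid and platelet genes 0 were called lower with all libraries and 2 without KO replicate 1. The part of this mixture in the results was not tested. Some results that move with KO replicate 1 are given without it, but not all of them. Markers of a simple epithelium, the tissue that colon carcinoma comes from, were mostly low: 15 of 16 were under the filter, and Cdx2 was at 0 in all 6 libraries. The list summed to 20.4 FPKM in WT replicate 2, to 7.53 and 4.71 in WT replicates 1 and 3, and to 2.06 to 5.17 in KO. Epcam, an adhesion protein of epithelia, stood at 0.354 to 1.75 FPKM in WT and 0.0344 to 0.421 in KO. Cdh1, which encodes E-cadherin, was the 1 tested member, at 1.80, 3.01 and 2.36 FPKM in WT and 0.710, 0.616 and 0.899 in KO (−0.95 ± 0.18, limma adjusted p = 0.00413). It was tested through the WT libraries alone.

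Chek2 itself (ENSMUSG00000029521, mm10 chr5:110839979-110874145, plus strand) stood at 6.14, 5.15 and 4.61 FPKM in WT replicates 1 to 3 and at 2.20, 2.40 and 1.92 FPKM in KO replicates 1 to 3. Every KO library lay below every WT library, and transcript remained in each KO library. The log2 difference was −0.99 ± 0.099 (limma adjusted p = 0.000164). An exact two-sided permutation test of the 3 against 3 values gave p = 0.1, the smallest this design allows. How much of the remaining transcript came from host cells was not tested, and gene-level values do not show which exons it held.

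**Figure D1:**
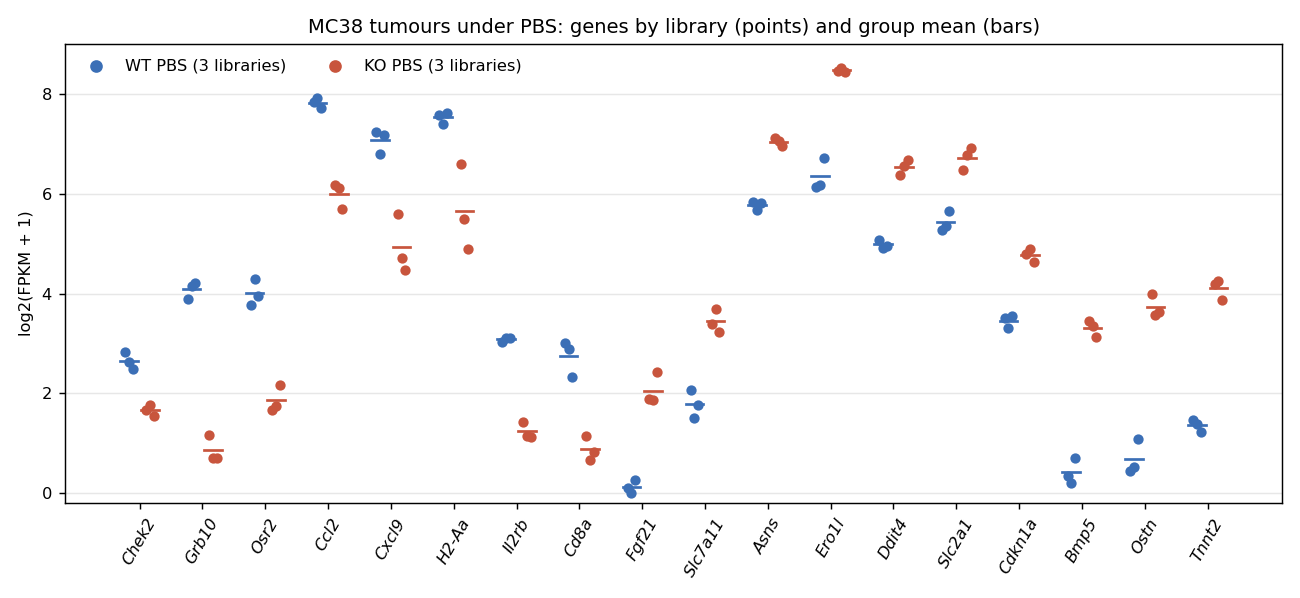
Levels of 18 genes in the 6 libraries, as log2(FPKM + 1) on the vertical axis, with 1 point per library and a bar at each group mean. Chek2, Grb10, Osr2 and the immune genes lie lower in the 3 KO libraries, and the other genes shown lie higher. Cdkn1a lies between 8.91 and 10.8 FPKM in WT and between 23.8 and 28.9 in KO.

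The tested genes of T cells and NK cells were lower in KO. All 13 tested genes of CD8 T cells and cytotoxicity fell, with a median log2 difference of −1.66, and so did all 10 pan T cell genes (median −1.46) and all 10 NK cell genes (median −1.25). These counts were the same without each library in turn for the CD8 genes and stayed within 1.5 times for the others. Under the filter, and so not tested, were 3 of 16 CD8 genes, 8 of 18 pan T cell genes and 3 of 13 NK cell genes. Some tested members, such as Cd3d, Ncr1 and Ifng, were under 1 FPKM in all KO libraries. They were thus tested through the WT libraries alone. The lists were chosen with earlier results of these data known, so their direction is a description. Ccl5, a chemokine made by activated T and NK cells, stood at 48.3, 48.5 and 44.8 FPKM in WT and at 10.9, 9.65 and 6.58 FPKM in KO. The groups lay far apart, and the log2 difference was −2.29 ± 0.21 (limma adjusted p = 0.000104).

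Trac, which encodes the constant region of the receptor's alpha chain, was at 10.1, 10.2 and 6.87 FPKM in WT and at 1.32, 0.577 and 1.04 in KO (−2.35 ± 0.24, limma adjusted p = 0.000188). Cd3d, a signalling chain of the receptor, was at 3.54, 3.13 and 2.71 FPKM in WT and at 0.275, 0.392 and 0.205 (−1.67 ± 0.13, limma adjusted p = 5.2e-05). Both receptor genes sat at a low level in all 3 KO tumours. Their groups did not overlap, which for Cd3d the filter had fixed in advance. Il2rb, the beta chain of the receptor for interleukin-2 and interleukin-15 on cytotoxic T and NK cells, was at 7.19, 7.68 and 7.62 FPKM in WT and 1.70, 1.22 and 1.19 in KO (−1.85 ± 0.12, limma adjusted p = 2.15e-05). Ncr1, an activating receptor that marks NK cells, went from 2.76, 1.71 and 2.04 FPKM to 0.171, 0.251 and 0.185 (−1.39 ± 0.24, limma adjusted p = 0.00243). Klrd1, the CD94 chain of NK receptors, was at 6.71, 9.16 and 5.95 FPKM in WT and at 2.00, 0.451 and 0.405 in KO, where replicate 1 was the highest of the KO libraries. The granzyme genes fell as well. Gzmc was at 56.5, 53.9 and 97.7 FPKM in WT and at 17.6, 13.4 and 6.14 in KO (−2.45 ± 0.38, limma adjusted p = 0.0015), and for Gzma the difference was −2.14 ± 0.24 (limma adjusted p = 0.000273).

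Of 8 tested CD4 helper and regulatory T cell genes 5 fell and 0 rose (3 fell without WT replicate 1). Among them Ctla4, an inhibitory receptor, stood at 2.10, 2.09 and 1.60 FPKM in WT and 0.409, 0.162 and 0.211 in KO (−1.22 ± 0.17, limma adjusted p = 0.000845). Tnfrsf9, the costimulatory receptor 4-1BB, stood at 4.71, 4.09 and 6.14 FPKM in WT and 1.52, 2.27 and 2.29 in KO. Foxp3, the defining factor of regulatory T cells, was under the filter, at 0.461, 0.259 and 0.197 FPKM in WT and 0.0513, 0.126 and 0.205 in KO. In the list of T cell inhibitory checkpoint genes 8 of 9 fell. Pdcd1, which encodes PD-1 itself, was at 3.11, 2.98 and 1.46 FPKM in WT and 0.713, 0.650 and 0.713 in KO (−1.02 ± 0.20, limma adjusted p = 0.00475). Ctla4 and Pdcd1 were under 1 FPKM in all KO libraries, so they were tested through the WT libraries alone. The ligands of PD-1 were lower too: Pdcd1lg2 had a log2 difference of −1.47 ± 0.30 (limma adjusted p = 0.00568). Cd274, the gene of PD-L1, differed by −0.92 (limma adjusted p = 0.0158), and its call was lost without KO replicate 3 (adjusted p = 0.06) or in a fit of all 24 libraries (0.0552). Of 5 tested B and plasma cell genes 3 fell, and the count was 1 without WT replicate 1, WT replicate 2 or KO replicate 2.

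The chemokines that draw T cells and monocytes were lower in KO. Among T cell chemokines and receptors 9 of 11 fell and 0 rose. Cxcl9, a ligand of CXCR3 that is induced by interferon-gamma and whose promoter is printed above, stood at 149.7, 110.5 and 143 FPKM in WT and at 47.0, 25.1 and 21.3 in KO (−2.14 ± 0.29, limma adjusted p = 0.000683). All KO libraries were below all WT libraries, with KO replicate 1 nearest to WT. Cxcl10, another CXCR3 ligand, went from 172, 147 and 212 FPKM to 81.1, 77.1 and 53.9 (−1.32 ± 0.23, limma adjusted p = 0.00253), and Cxcr3, the receptor, fell by 0.82 on the log2 scale from a level of 1.20 to 1.49 FPKM.

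Among monocyte chemokines and genes of the CSF1 axis 7 of 11 fell and 0 rose. Ccl2, the main ligand of CCR2, stood at 228, 239 and 211 FPKM in WT and at 70.8, 68.5 and 50.9 in KO (−1.83 ± 0.14, limma adjusted p = 5.2e-05). Ccl8, a related monocyte chemokine, went from 135, 125 and 168 FPKM to 58.2, 17.3 and 20.96 (−2.31 ± 0.42, limma adjusted p = 0.00358). Ccr2, the receptor on inflammatory monocytes, was at 8.93, 13.2 and 11.3 FPKM in WT and at 3.22, 2.78 and 3.91 in KO (−1.49 ± 0.27, limma adjusted p = 0.00317). Ligand and receptor were thus both low in KO, without overlap. Csf1, the growth factor of macrophages, was not called: it was at 22.1, 17.9 and 24.2 FPKM in WT and at 23.3, 22.4 and 26.4 in KO.

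Genes induced by interferon-gamma were lower in KO: 17 of 23 fell and 1 rose, with a median log2 difference of −0.95. Ifng itself stood at 3.78, 2.84 and 3.93 FPKM in WT and at 0.977, 0.335 and 0.103 in KO (−1.65 ± 0.27, limma adjusted p = 0.00191). Gbp4, a GTPase of the guanylate-binding family that acts against intracellular microbes, went from 60.9, 57.2 and 82.3 FPKM to 20.8, 16.3 and 14.0 (−1.91 ± 0.23, limma adjusted p = 0.000384). Gbp2 of the same family went from 485, 376 and 570.0 FPKM to 254, 196 and 174 (−1.19 ± 0.23, limma adjusted p = 0.00438). Both were separated completely by genotype. The rise was that of Wars, a tRNA synthetase that also belongs to the ATF4 group (0.79 ± 0.21, limma adjusted p = 0.0204). It was not called without WT replicate 1, WT replicate 3 or KO replicate 1 (adjusted p = 0.0576 to 0.0664), in the fit of all 24 libraries (0.0610) or with no filter on low values (0.0595).

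In the pathway between the receptor and these genes 8 of 15 members fell and 0 rose. Ciita, the master regulator of MHC class II genes, went from 2.76, 2.46 and 2.90 FPKM to 1.46, 0.347 and 0.803 (−1.03 ± 0.20, limma adjusted p = 0.00474). Further up, Ifngr1, a receptor chain, was not called (−0.44, limma adjusted p = 0.134) except without WT replicate 3 (−0.63, adjusted p = 0.0459). Irf1, a transcription factor induced by the cytokine, was not called either, and ranged from 31.6 to 89.5 FPKM in WT and from 21.9 to 50.3 in KO. Genes of the type I interferon response gave 4 of 22 lower and 0 higher (median −0.27). Zbp1, a sensor of nucleic acids, differed by −1.23 ± 0.21 (limma adjusted p = 0.00248) and Ifit3 by −1.21 ± 0.24 (limma adjusted p = 0.0048). Isg15, a ubiquitin-like protein induced by the same interferons, was at 98.4, 77.5 and 85.7 FPKM in WT and at 109, 112 and 103 in KO, and was not called (limma adjusted p = 0.186).

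Antigen presentation genes were lower as well. All 9 tested MHC class II genes fell (median −1.26), and 13 of 21 genes of MHC class I and peptide loading fell (median −0.40, 8 of 21 without WT replicate 3 or KO replicate 2). H2-Aa, an alpha chain of class II, stood at 190.3, 168 and 195 FPKM in WT and at 95.8, 44.1 and 28.8 in KO (−1.87 ± 0.32, limma adjusted p = 0.00261). H2-Eb1, a beta chain, stood at 138, 119.9 and 160.1 FPKM in WT and at 78.3, 33.5 and 25.8 in KO (−1.74 ± 0.32, limma adjusted p = 0.00374). KO replicate 1 was the nearest to WT for both, and the groups did not overlap. Ctss, the protease cathepsin S that trims the class II invariant chain, went from 725, 761 and 714 FPKM to 515, 333 and 165 (−1.26 ± 0.30, limma adjusted p = 0.0112). In class I, Psmb10, a subunit of the immunoproteasome, was at 72.8, 64.7 and 65.8 FPKM in WT and at 34.6, 33.3 and 35.9 in KO (−0.95 ± 0.10, limma adjusted p = 0.000184). B2m, the light chain of every class I molecule, missed the threshold, from 3335, 3531 and 3534 FPKM to 2861, 2778 and 2332 (−0.39, limma adjusted p = 0.0534). It was called when the 6 PBS libraries were fitted alone (adjusted p = 0.0442) and with a minimum of 5 FPKM (0.0432), while Ctss was not called in the fit of those 6 (0.0546). When all 24 libraries were fitted together, so that the spread of B16 tumours entered, H2-Aa (adjusted p = 0.0753), H2-Eb1 (0.0784), Cxcl9 (0.0901), Gbp4 (0.0980), Gbp2 (0.355), Ciita (0.0647), Ctss (0.0900), Psmb10 (0.0899), Zbp1 (0.195) and Ifit3 (0.176) were no longer called. Near-identical copies among class I genes, killer cell receptors and T cell receptor constant segments can share reads, so single values within these families are uncertain.

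**Figure D2:**
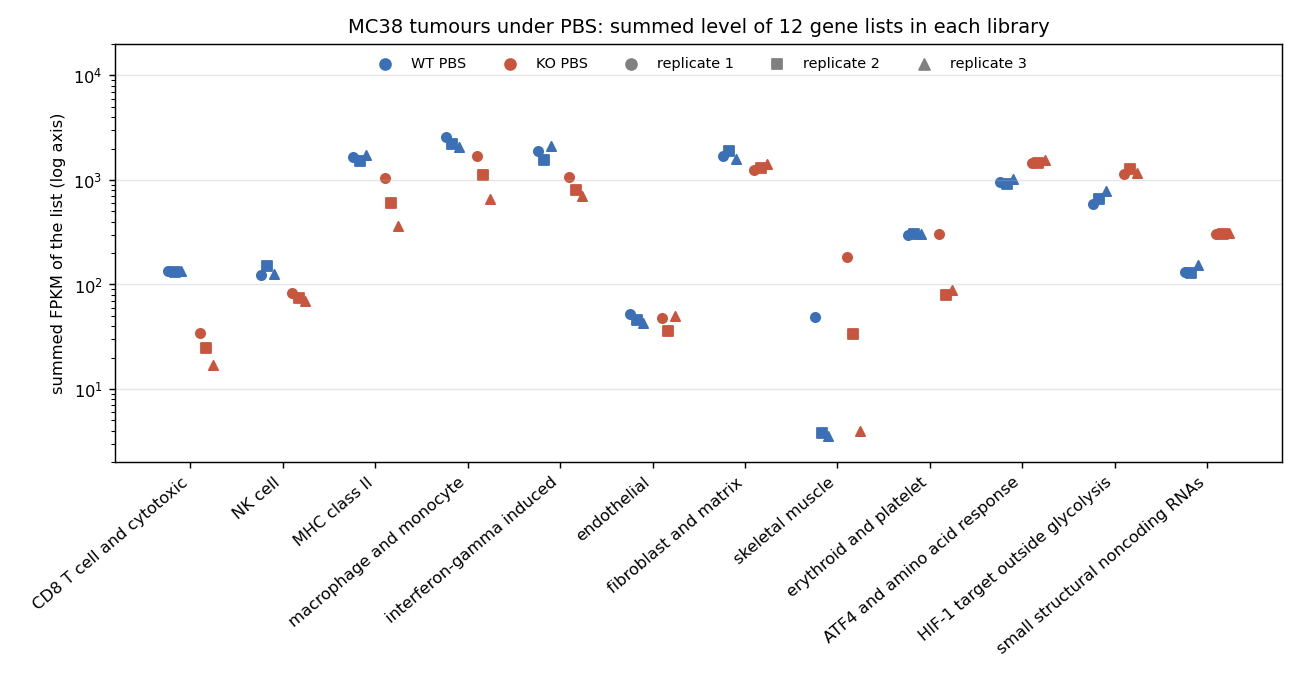
Summed FPKM of 12 gene lists in each of the 6 libraries, on a log axis, with WT and KO libraries as separate points. The CD8 genes sum to 131.7 to 136.1 FPKM in WT and to 17.2 to 34.2 in KO, the macrophage genes to 2084 to 2554 and to 659.4 to 1699, and the skeletal muscle genes stand highest in KO replicate 1, at 182.

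Macrophage and monocyte genes differed among the KO libraries. Of 20 tested genes 12 fell and 0 rose (median −0.92). Their summed level was 2084 to 2554 FPKM in WT and 1699, 1112 and 659.4 in KO replicates 1, 2 and 3, so that KO replicate 1 was nearest to WT. The count was 18 without KO replicate 1, 8 without WT replicate 1 and 6 without WT replicate 2. Adgre1, the F4/80 antigen of mature macrophages, was at 37.8, 37.4 and 30.1 FPKM in WT and at 38.2, 21.4 and 11.1 in KO. It was not called with all libraries (−0.71, limma adjusted p = 0.118) and was called without KO replicate 1 (−1.13, adjusted p = 0.00547). Ly6c2, a surface protein of inflammatory monocytes, stood at 9.99, 8.20 and 6.87 FPKM in WT and at 3.23, 2.08 and 1.57 in KO (−1.52 ± 0.33, limma adjusted p = 0.00795). Among Fc gamma receptors 3 of 5 fell (5 without KO replicate 1, 1 without WT replicate 1 or 2). Fcgr2b, the inhibitory receptor of that family, fell by 1.03 ± 0.19 on the log2 scale (limma adjusted p = 0.00316). Among complement genes 4 of 15 fell, with 8 without KO replicate 1, 2 without WT replicate 1 and 0 without WT replicate 2. Arg1, which encodes arginase and marks suppressive myeloid cells, was at 55.4, 56.9 and 113 FPKM in WT and at 11.7, 18.4 and 19.9 in KO (−2.06 ± 0.44, limma adjusted p = 0.00706). Endothelial genes gave 0 of 12 called by limma (0 also at an unadjusted p under 0.05), and their sum was 42.7 to 52.7 FPKM in WT and 35.9 to 49.7 in KO.

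**Figure D3:**
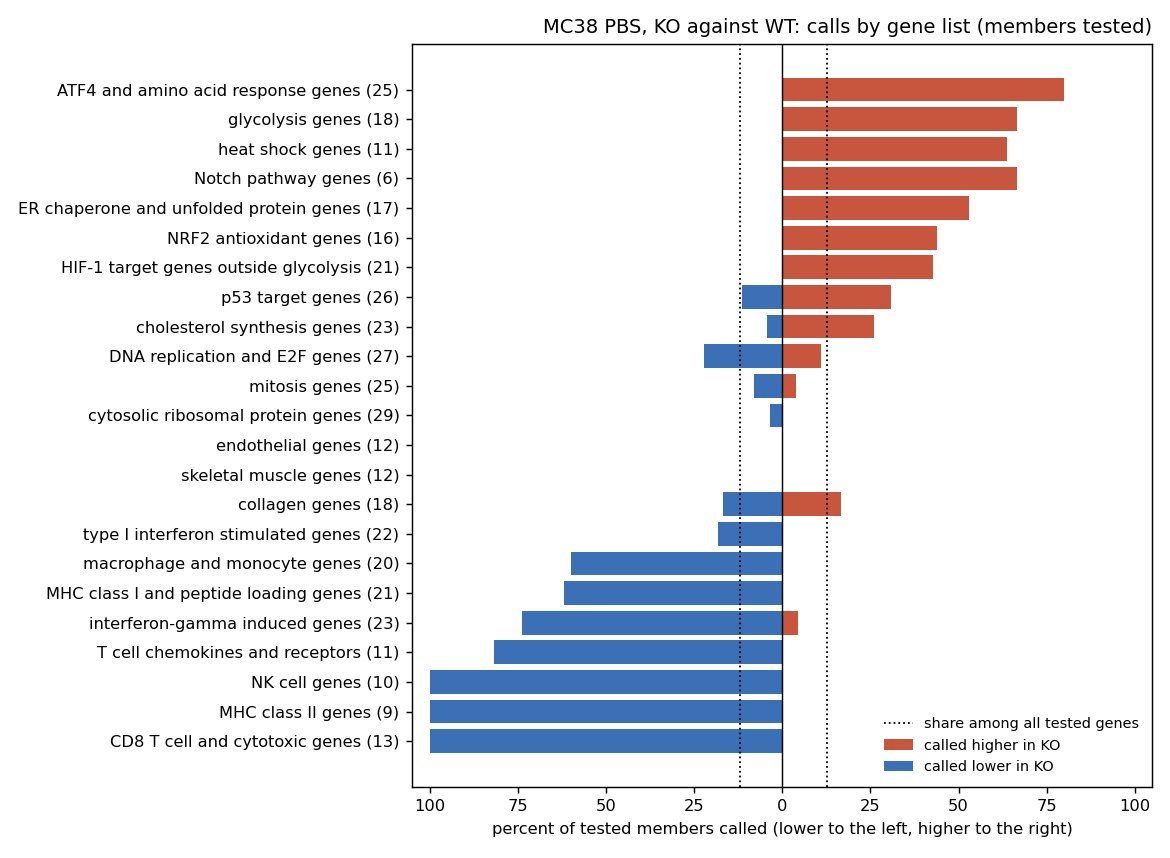
Percent of tested members called lower (left) and higher (right) in KO for 23 gene lists, with dotted lines at the 12.1% and 12.6% of all tested genes. T cell, NK cell and MHC class II lists reach 13 of 13, 10 of 10 and 9 of 9 lower, and the ATF4 list reaches 20 of 25 higher.

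Genes of the ATF4 and amino acid response were higher in KO, those by which cells make and import amino acids under stress. Of 25 tested genes 20 rose and 0 fell, with a median log2 difference of 0.85. Their summed level was 907.2 to 1030 FPKM in WT and 1447 to 1559 in KO. Asns, asparagine synthetase, stood at 56.2, 50.2 and 55.5 FPKM in WT and at 138, 132 and 124 in KO (1.27 ± 0.12, limma adjusted p = 0.000113). Cth, the enzyme that makes cysteine from cystathionine, stood at 3.84, 2.45 and 3.35 FPKM in WT and at 15.2, 14.6 and 12.2 in KO (1.84 ± 0.22, limma adjusted p = 0.000391). Slc7a11, the cystine importer whose promoter holds the ATF4 element in both orientations, went from 3.21, 1.84 and 2.40 FPKM to 9.47, 12 and 8.42 (1.66 ± 0.20, limma adjusted p = 0.000384). These enzymes and the importer were high in all 3 KO tumours, with no overlap. Fgf21, a stress hormone, was at 0.0713, 0 and 0.195 FPKM in WT and at 2.68, 2.65 and 4.36 in KO (1.94 ± 0.25, limma adjusted p = 0.000602). It was tested through the KO libraries alone. Aldh1l2, a mitochondrial folate enzyme, went from 22.5, 16.5 and 21.02 FPKM to 61.4, 54.8 and 52.0, and Trib3, a pseudokinase that restrains ATF4, went from 23.7, 21.1 and 37.3 to 64.8, 62.9 and 85.2. The transcript of Atf4 itself was at 150.2, 154 and 173 FPKM in WT and at 152, 158 and 158 in KO (−0.02 ± 0.18, limma adjusted p = 0.948), and the sign of this small difference turned under some alternatives.

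HIF-1 target genes rose in part: 9 of 21 outside glycolysis were higher and 0 lower (median 0.48), and 12 of 18 glycolysis genes were higher and 0 lower (median 0.43, 7 of 18 without WT replicate 2). Ero1l, an oxidase of the endoplasmic reticulum that HIF-1 induces, stood at 69.6, 71.5 and 104.7 FPKM in WT and at 351, 367 and 347 in KO (2.13 ± 0.23, limma adjusted p = 0.000257). Ddit4, an inhibitor of mTORC1 that both HIF-1 and ATF4 can induce, stood at 32.8, 29.2 and 30.1 FPKM in WT and at 82.3, 92.5 and 100.9 in KO (1.55 ± 0.12, limma adjusted p = 5.75e-05). The groups did not overlap for either gene, and for Ero1l WT replicate 3 was higher than the other WT libraries. Car9, a carbonic anhydrase often used as a marker of hypoxia, went from 2.74, 4.14 and 3.62 FPKM to 7.92, 11.6 and 9.68 (1.25 ± 0.23, limma adjusted p = 0.00381). Vegfa, the angiogenic factor, went from 32.7, 46.8 and 54.4 FPKM to 62.4, 73.4 and 60.2 and was not called (limma adjusted p = 0.0716). It was called without WT replicate 3 (adjusted p = 0.0462) and with protein-coding genes alone (0.0377). Transport and glycolysis itself showed larger and smaller rises. Slc2a1, the glucose transporter GLUT1, went from 37.5, 39.7 and 49.5 FPKM to 88.0, 108 and 119 (1.29 ± 0.18, limma adjusted p = 0.000962). Pfkp, a phosphofructokinase, went from 4.65, 4.59 and 3.46 FPKM to 8.54, 10.4 and 9.61 (1.01 ± 0.13, limma adjusted p = 0.000611). The rise of Ldha, lactate dehydrogenase, was small (0.39 ± 0.12, limma adjusted p = 0.0319) and was not called without WT replicate 1, WT replicate 2 or any 1 of the KO replicates (adjusted p = 0.0585 to 0.0895). Pkm, the pyruvate kinase of tumours, was not called, at 311, 315 and 315 FPKM in WT and 291, 305 and 301 in KO.

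Folding, antioxidant and sterol genes were examined next. Of 17 chaperones and unfolded protein genes of the endoplasmic reticulum 9 rose and 0 fell, among them Hspa5, the chaperone BiP (0.77 ± 0.15, limma adjusted p = 0.00529), and Sel1l, part of the degradation complex of that compartment (0.77 ± 0.13, limma adjusted p = 0.00236). Of 11 heat shock genes 7 rose and 0 fell (4 without KO replicate 3). Hsph1, a cytosolic chaperone, stood at 20.2, 17.5 and 14.7 FPKM in WT and at 60.1, 37.5 and 58.0 in KO (1.501 ± 0.20, limma adjusted p = 0.00068). Of 16 antioxidant genes driven by NRF2 7 rose and 0 fell. Gstm1, a glutathione transferase, rose from 4.47, 4.17 and 4.42 FPKM to 9.34, 7.67 and 11.3 (0.95 ± 0.13, limma adjusted p = 0.000878). Nqo1, a quinone reductase, rose by 0.70 ± 0.11 (limma adjusted p = 0.00196). Cholesterol synthesis gave 6 of 23 higher and 1 lower. The count of higher genes was 3 without WT replicate 3 and 2 without KO replicate 2, and that of lower genes was 0 without WT replicate 2 or KO replicate 3 and 2 without WT replicate 3.

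In the pathway of the deleted kinase few transcripts were called beyond Chek2. Of 18 DNA damage kinases and genes of the p53 axis 1 rose, Mdc1, an adaptor at double-strand breaks (0.32 ± 0.08, limma adjusted p = 0.0193), and 1 fell, Chek2 itself. Mdc1 was not called without KO replicate 3 (adjusted p = 0.0696). The counts were 3 higher and 2 lower without WT replicate 1, and 2 lower without WT replicate 3. Atm, Chek1 and Trp53, the genes of the upstream kinase, the sister kinase and p53, were not called, with log2 differences of 0.27, 0.12 and 0.11. Without WT replicate 1 Atm was called (0.45, adjusted p = 0.0238). Among p53 target genes 8 of 26 rose and 3 fell, with a median of 0.06. Cdkn1a, which encodes the cell cycle inhibitor p21, stood at 10.3, 8.91 and 10.8 FPKM in WT and at 26.8, 28.9 and 23.8 in KO (1.32 ± 0.13, limma adjusted p = 0.000143). Its KO values were all well above its WT values. Gadd45a, a stress-induced growth arrest gene, went from 8.61, 9.18 and 17.7 FPKM to 28.7, 28.7 and 36.5 (1.39 ± 0.27, limma adjusted p = 0.00446). Phlda3, an inhibitor of AKT, rose by 0.96 ± 0.09 (limma adjusted p = 0.000128). Mdm2, the p53 ubiquitin ligase and a classical p53 target, was not called, at 13.2, 14.8 and 16.1 FPKM in WT and 13.3, 14.6 and 12.7 in KO. Sesn1, another p53 target, fell by 0.83 ± 0.17 on the log2 scale (limma adjusted p = 0.0063).

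Most cell cycle genes were not called, as was so for all tested genes, of which 12.6% rose and 12.1% fell. Of 27 genes of DNA replication and E2F 3 rose and 6 fell (median −0.09), with 3 lower without WT replicate 1, WT replicate 2 or KO replicate 3. E2f1, a transcription factor of S phase entry, went from 18, 19.7 and 21.7 FPKM to 11.3, 12.9 and 11.2 (−0.70 ± 0.09, limma adjusted p = 0.000523). Gins1, a subunit of the replicative helicase, fell by 0.71 ± 0.12 on the log2 scale (limma adjusted p = 0.00212), while Mcm2, another subunit of it, rose from 14.8, 11.7 and 12.3 FPKM to 20.4, 19.02 and 22.2 (0.63 ± 0.11, limma adjusted p = 0.00222). Pcna, the sliding clamp of DNA polymerases, was not called (−0.19, limma adjusted p = 0.142). Helicase subunits therefore moved in both directions. Of 25 mitosis genes 1 rose and 2 fell with all 6 libraries. Without WT replicate 1 the counts were 2 and 0, without WT replicate 2 or KO replicate 2 they were 0 and 0, without WT replicate 3 they were 0 and 4, without KO replicate 1 the count of higher genes was 0 and without KO replicate 3 that of lower genes was 0.

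Growth factor genes are given by pathway. In the insulin-like growth factor axis with imprinted growth genes 4 of 18 fell and 0 rose. Grb10, an imprinted adaptor that dampens insulin and IGF receptor signalling, stood at 13.9, 16.8 and 17.5 FPKM in WT and at 1.25, 0.639 and 0.639 in KO (−3.22 ± 0.24, limma adjusted p = 3.87e-05). Igf2, an imprinted fetal growth factor, was at 5.64, 5.41 and 14.1 FPKM in WT and near 0 in KO, at 0.0102, 0.0152 and 0.0191 (−3.09 ± 0.39, limma adjusted p = 0.000473). Igf2 was thus tested through the WT libraries alone. H19, the long noncoding RNA of the same imprinted locus, went from 285, 412 and 326 FPKM to 96.9, 119 and 106 (−1.65 ± 0.22, limma adjusted p = 0.000742). All 3 were low in each KO library. H19 was at the edge of the threshold in the fit of all 24 libraries (adjusted p = 0.0503), and Igf1r, the receptor of these factors, was not called (−0.25, limma adjusted p = 0.109) except without WT replicate 1 (−0.36, adjusted p = 0.0253).

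Bmp5, a ligand of the bone morphogenetic protein family, rose from 0.270, 0.158 and 0.632 FPKM to 9.97, 9.21 and 7.76 (2.89 ± 0.20, limma adjusted p = 2.15e-05). In its pathway 4 of 11 genes rose and 2 fell (2 higher without KO replicate 2 or 3, and 1 lower without WT replicate 2 or 3). Among targets of these ligands, Id1 rose by 0.79 ± 0.18 (limma adjusted p = 0.0102) but was not called in the fit of all 24 libraries (adjusted p = 0.134). Id2, which NK and cytotoxic T cells also express, went from 19.4, 16.4 and 18.7 FPKM to 9.22, 9.85 and 6.69 (−1.01 ± 0.16, limma adjusted p = 0.0015). The EGFR ligands Areg and Ereg, amphiregulin and epiregulin, both rose. Areg went from 0.795, 0.706 and 0.153 FPKM to 4.98, 6.51 and 4.33 (2.03 ± 0.38, limma adjusted p = 0.00419), and Ereg from 2.21, 2.49 and 2.93 to 7.04, 8.20 and 6.31 (1.21 ± 0.13, limma adjusted p = 0.000265). They were the 2 of 7 members of the EGFR family and its ligands that were called, and Egfr, the receptor, was not (−0.37, limma adjusted p = 0.155). In the TGF-beta group 5 of 16 rose and 3 fell. Tgfb2, a ligand, went from 0.633, 0.542 and 0.638 FPKM to 2.19, 2.79 and 2.25 (1.08 ± 0.11, limma adjusted p = 0.000181). Bmp5, Areg and Tgfb2 were under 1 FPKM in all WT libraries, so they were tested through the KO libraries alone. Ltbp1, which holds latent TGF-beta in the matrix, fell by 0.80 ± 0.17 on the log2 scale (limma adjusted p = 0.00689).

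Of 14 Wnt genes 2 fell, Wnt5a and Ror1, which are a ligand of the noncanonical branch and its receptor. Wnt5a went from 16.4, 15.9 and 16.2 FPKM to 5.07, 8.73 and 7.91 (−1.09 ± 0.14, limma adjusted p = 0.000554) and Ror1 from 1.60, 1.28 and 1.58 to 0.274, 0.334 and 0.313 (−0.92 ± 0.16, limma adjusted p = 0.00233). Ror1 was tested through the WT libraries alone. The 1 Wnt gene that rose, Wnt7b, was not called without WT replicate 1, 2 or 3 or KO replicate 1 or 2 (adjusted p = 0.0509 to 0.134). Of 6 Notch pathway genes 4 rose and 0 fell (2 without WT replicate 2, KO replicate 2 or KO replicate 3). They included the ligand Jag1 (0.73 ± 0.14, limma adjusted p = 0.00443) and the receptor Notch1 (0.69 ± 0.12, limma adjusted p = 0.00327).

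Matrix genes moved both ways. Mmp10, the matrix protease stromelysin 2, was at 1.02, 0.334 and 0.958 FPKM in WT and at 22.1, 21.5 and 7.49 in KO, where replicate 3 was lower than the other two (3.24 ± 0.34, limma adjusted p = 0.000203). Timp2, an inhibitor of such proteases, fell from 223, 223 and 279 FPKM to 147, 156 and 144 (−0.69 ± 0.08, limma adjusted p = 0.00039). Dcn, the collagen-binding proteoglycan decorin, fell from 214, 266 and 210.2 FPKM to 52.8, 59.1 and 47.6 (−2.09 ± 0.28, limma adjusted p = 0.000742). Collagen genes gave 3 of 18 higher and 3 lower. Col8a1 fell from 17.4, 20.2 and 19.7 FPKM to 7.75, 6.52 and 6.41 (−1.35 ± 0.16, limma adjusted p = 0.000313), while Col7a1, the anchoring fibril collagen, rose by 0.72 ± 0.14 (limma adjusted p = 0.00407). Col1a1, the most typical collagen of fibroblasts, was not called, at 58.5, 43.6 and 22.8 FPKM in WT and 55.8, 46.1 and 56.6 in KO. Fibroblast genes gave 2 of 17 higher and 5 lower. That count was not stable: without single libraries the higher genes were 0 (WT replicate 2, KO replicate 3) or 1 (WT replicate 3, KO replicate 2), and the lower genes were 2 (WT replicates 1 and 2, KO replicate 2) or 3 (WT replicate 3, KO replicate 3).

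Several genes outside these pathways changed by as much. Tnnt2, a troponin of cardiac muscle that is not a member of the skeletal muscle list, went from 1.78, 1.60 and 1.35 FPKM to 17.3, 18.1 and 13.6 and had the smallest adjusted p of all tested genes (2.74 ± 0.13, limma adjusted p = 3.26e-06). Its KO values were close together, unlike the muscle genes of KO replicate 1. Ostn, the secreted peptide osteocrin, went from 0.361, 0.444 and 1.13 FPKM to 15.0, 10.9 and 11.3 (3.04 ± 0.18, limma adjusted p = 1.38e-05). Car6, a secreted carbonic anhydrase, went from 4.504, 3.86 and 10.4 FPKM to 43.1, 40.2 and 41.2. P2rx3, an ATP-gated ion channel of sensory neurons, went from 4.82, 2.38 and 5.45 FPKM to 24.4, 29.0 and 24.4. Krt14, a keratin of basal epidermis, rose from 3.52, 3.19 and 4.19 FPKM to 27.8, 19.9 and 15.5 (2.22 ± 0.27, limma adjusted p = 0.000434), while 9 of the 11 keratinocyte markers were under the filter. Osr2, a zinc finger factor of developing mesenchyme, fell from 12.6, 18.6 and 14.5 FPKM to 2.16, 2.35 and 3.51 (−2.15 ± 0.19, limma adjusted p = 9.81e-05). Pttg1ip, a protein that binds securin, fell from 73.5, 89.5 and 86.4 FPKM to 11.4, 28.3 and 11.0 (−2.36 ± 0.49, limma adjusted p = 0.00605). In each of these genes the 3 KO values lay on one side of the 3 WT values. The naming rule required this of the largest rises and falls, here and in the paragraphs above, so for them it is no finding.

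Small structural RNAs were higher in KO: 9 of 12 tested members rose and 0 fell, with a median log2 difference of 1.89. Their sum was 128.8 to 153.5 FPKM in WT and 303.4 to 314.1 in KO. The largest rise was that of n-R5-8s1, a gene model of 5.8S ribosomal RNA, at 6.30, 4.14 and 8.60 FPKM in WT and 72.6, 60.3 and 71.0 in KO (3.27 ± 0.29, limma adjusted p = 9.35e-05). Rn7s1, a copy of the RNA of the signal recognition particle, was at 6.79, 5.77 and 2.98 FPKM in WT and at 41.4, 42.1 and 41.1 in KO (2.84 ± 0.49, limma adjusted p = 0.00269). Another copy, Rn7s6, was listed at 0 in all WT libraries and at 4.39, 4.38 and 5.11 in KO, so it was tested through the KO libraries alone. These RNAs are transcribed from many near-identical copies and often lack a poly(A) tail, so their values depend on how reads were assigned and on library preparation, neither of which is given in the sources used here. All small RNA genes together held 0.366% to 0.386% of the summed FPKM in WT and 0.554% to 0.621% in KO. Their part in the other results was not tested. Among protein-coding genes, 1428 were higher and 1477 lower in the main fit. With protein-coding genes alone, rescaled to a common total, 1841 genes were higher and 1198 lower, so the balance of directions depended on the scaling.

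The effect of the knock-out was then set against its effect under anti-PD-1, measured in 6 other MC38 libraries. Under anti-PD-1, 12.7% of tested genes were called between genotypes, 5.14% higher and 7.56% lower. The difference between the effects was called for 382 genes, 2.85% of those tested, with 281 of them lower under PBS (2.1%) and the rest higher (0.754%). This count was 723 without KO PBS replicate 1, and it fell when a library of the WT PBS group was left out (82, 96 and 144 for replicates 1, 2 and 3), of the KO PBS group (56 and 150 for replicates 2 and 3), of the WT group given the antibody (112, 92 and 210 for replicates 1, 2 and 3) or of the KO group given it (58 and 120 for replicates 2 and 3). The number of called genes varied among the immune groups, and no test compared the groups. At an unadjusted limma p under 0.05 the difference held for 13 of 13 CD8 genes and 10 of 10 NK cell genes. The same was true of 10 of 10 pan T cell genes and 9 of 9 MHC class II genes. It held for 18 of 23 interferon-gamma induced, 17 of 20 macrophage, 14 of 22 type I interferon and 3 of 5 B cell genes. Among all tested genes it held for 2658 of 13391. In the CD8 list 0 of 13 genes were called by limma under anti-PD-1 (0 of 13 also at an unadjusted p under 0.05), and for 12 of 13 the difference itself was called, lower under PBS. That count was 5 without replicate 1 of WT PBS or replicate 2 of KO PBS, WT anti-PD-1 or KO anti-PD-1, and 7 when WT PBS replicate 2 was left out. Cd8a averaged 6.17 FPKM in WT and 6.04 in KO under anti-PD-1, and stood at 7.06, 6.43 and 3.99 in WT and 1.21, 0.585 and 0.775 in KO under PBS (difference of the effects −1.83 ± 0.25, limma adjusted p = 0.0109). For Il2rb the difference was −1.97 ± 0.18 (limma adjusted p = 0.00173). Both stayed called without each library in turn. The same difference was called for 6 of 9 MHC class II members, 6 of 10 pan T cell and 4 of 10 NK cell genes, 10 of 23 interferon-gamma induced genes, 3 of 20 macrophage genes, 1 of 22 type I interferon genes and 0 of 5 B cell genes. Single libraries moved these counts: over leaving out each in turn, the NK cell count ran from 1 to 6, that of interferon-gamma induced genes from 0 to 15 and that of macrophage genes from 0 to 13. The last 2 were highest without KO PBS replicate 1, and 0 without WT PBS replicate 1, among others. For MHC class II the count was 1 without any 1 of the WT PBS replicates, KO PBS replicate 2 or either anti-PD-1 replicate 2. It was 2 with replicate 1 of WT anti-PD-1 left out and 3 with replicate 3 of that group left out. Without KO PBS replicate 1 the class II count was 8. H2-Aa averaged 172 FPKM in WT and 265 in KO under anti-PD-1 (difference of the effects −2.47 ± 0.46, limma adjusted p = 0.0284). Its difference was not called without any 1 of the WT PBS replicates, KO PBS replicate 2, WT anti-PD-1 replicate 1 or 2 or KO anti-PD-1 replicate 2 (adjusted p = 0.0561 to 0.0756).

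For some genes the difference between treatments was not called, which does not show that the effects were equal. Ccl2 averaged 246 FPKM in WT and 85.6 in KO under anti-PD-1, and the difference of its effects was −0.33 ± 0.20 (limma adjusted p = 0.395). Of 25 ATF4 genes 14 were higher and 0 lower in KO under anti-PD-1, and limma called the difference for 0 of 25 (13 at an unadjusted p under 0.05, and 1 called without KO PBS replicate 1). Of HIF-1 targets outside glycolysis 3 of 21 were higher in KO under anti-PD-1, and the median there was −0.03. The difference was called for 1 of 21, P4ha1, a collagen prolyl hydroxylase (0.66 ± 0.16, limma adjusted p = 0.04998), while 11 had an unadjusted p under 0.05. That count was 4 without KO PBS replicate 1, 3 without replicate 1 of KO anti-PD-1, 1 without WT PBS replicate 3 and 0 without each of the other 9 libraries. Ostn rose by 3.07 under anti-PD-1 and by 3.04 under PBS, and Bmp5 by 2.503 and 2.89. For Ostn the difference was −0.03 ± 0.26 (limma adjusted p = 0.967). Of the small RNAs limma called 0 of 12 under anti-PD-1 (1 at an unadjusted p under 0.05), and it called the difference between treatments for 3 of 12, n-R5-8s1, Rn7s1 and Rny1. That count was 1 without most single libraries, 2 without WT PBS replicate 1 and 4 without replicate 1 of KO anti-PD-1. Under anti-PD-1 n-R5-8s1 averaged 6.64 FPKM in WT and 6.79 in KO.

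**Figure D4:**
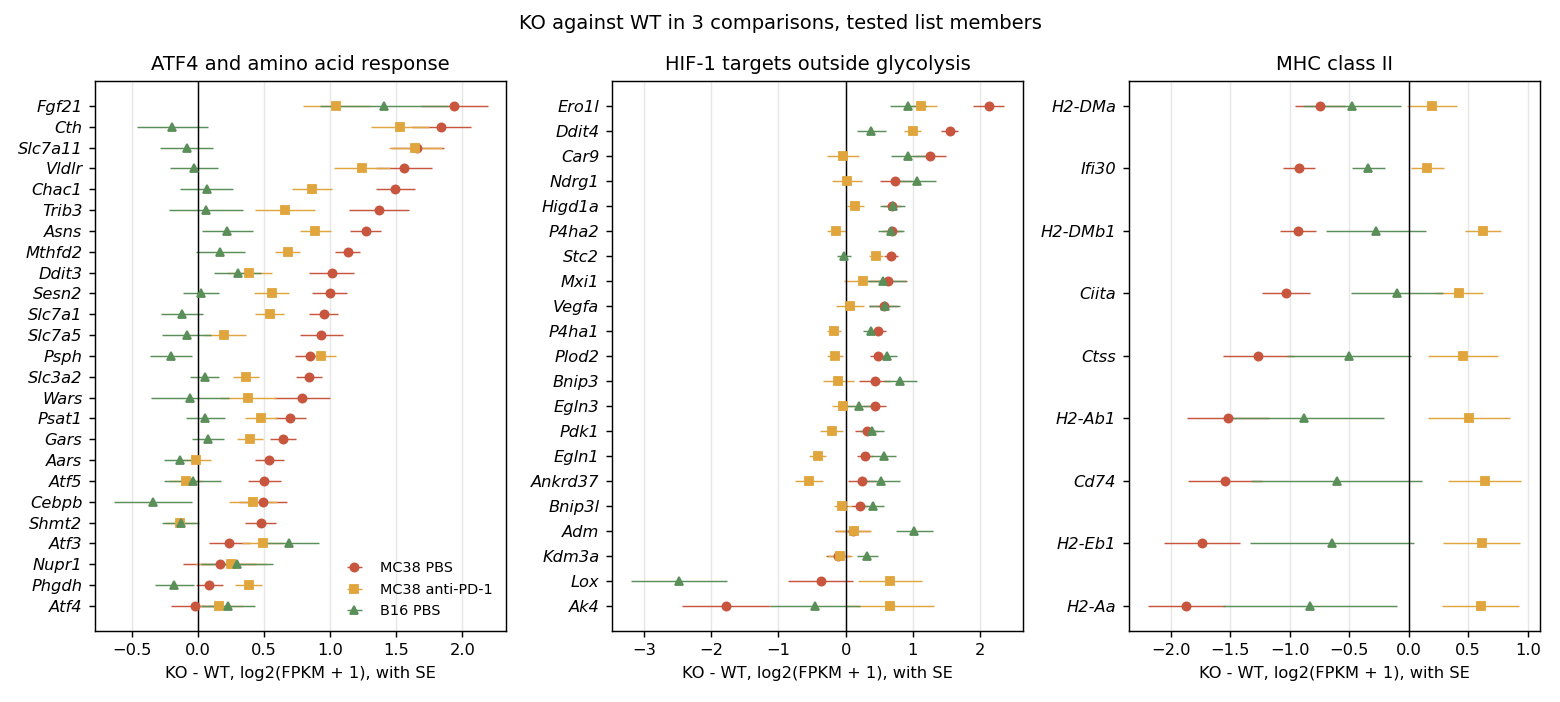
Log2 difference KO minus WT, with its standard error as bars, for members of the ATF4, HIF-1 and MHC class II lists in MC38 under PBS, MC38 under anti-PD-1 and B16 under PBS. ATF4 genes have medians of 0.85 and 0.48 in MC38 under PBS and anti-PD-1, and of 0.02 in B16. MHC class II genes have medians of −1.26 in MC38 under PBS, 0.51 in MC38 under anti-PD-1 and −0.50 in B16.

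Against B16 tumours under PBS, where 2.27% of 14735 tested genes were called between genotypes (0.984% higher and 1.28% lower), the difference between the lines was called for 1495 genes (10.1%), 957 higher in the MC38 comparison (6.49%) and 538 lower (3.65%). The count was 925 without MC38 WT replicate 2 and 931 without MC38 KO replicate 3. Chek2 fell by less in B16, by 0.37 on the log2 scale (limma adjusted p = 0.0355), from a mean of 7.60 to 5.66 FPKM, and the difference between lines was −0.62 ± 0.13 (limma adjusted p = 0.00499). For 14 of 25 ATF4 genes the rise was larger in MC38 (9 without MC38 WT replicate 2). Their median was 0.02 in B16, where limma called 0 of 25 (2 at an unadjusted p under 0.05). Slc7a11 averaged 1.59 and 1.45 FPKM in B16 WT and KO (difference between lines 1.75 ± 0.29, limma adjusted p = 0.000845). HIF-1 targets outside glycolysis had medians of 0.48 in MC38 and 0.56 in B16, where 1 of 21 was called, Plod2, a collagen lysyl hydroxylase (limma adjusted p = 0.0257), and 14 had an unadjusted p under 0.05. The difference between lines was called for 3 of 21, Ddit4, Ero1l and Stc2, all higher in MC38 (1 without MC38 WT replicate 2 or MC38 KO replicate 3, and 2 without most other libraries). For 11 of 13 CD8 genes the fall was larger in MC38 (7 without any 1 of the B16 KO replicates, B16 WT replicate 3 or MC38 KO replicate 3). These genes were scarce in B16 in both groups: Cd8a averaged 0.214 FPKM in WT and 0.182 in KO, and Ifng was listed at 0 in both. Limma called the difference between lines for 0 of 9 MHC class II genes (1 at an unadjusted p under 0.05, and 1 called without MC38 KO replicate 1). Their median was −1.26 in MC38 and −0.50 in B16, where limma called 0 of 9 (1 at an unadjusted p under 0.05). Bmp5, Krt14 and Igf2 were listed at 0 in both B16 groups, so for them a difference between lines restates the MC38 effect. Cdkn1a rose in B16 too, by 0.57 (limma adjusted p = 0.0307), and by 0.75 ± 0.19 more in MC38 (adjusted p = 0.0174, and 0.0523 without MC38 WT replicate 2).

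Called genes were spread unevenly over the chromosomes. On chromosome 6, 23.7% of tested genes were higher and 9.88% lower, on chromosome 3 the shares were 19.8% and 7.47%, and on chromosome 12 they were 19% and 6.63%. The balance was the other way on chromosome X, with 4.70% higher and 24.2% lower, on chromosome 8, with 7.02% and 19.2%, and on chromosome 10, with 7.46% and 16.7%. The median log2 difference was 0.10 on chromosome 6, −0.10 on chromosome 8 and −0.12 on chromosome X. In the 6 anti-PD-1 libraries the lean was in the same direction on these 6 chromosomes: 11.2% higher and 3.65% lower on chromosome 6, and 2.01% and 19.9% on chromosome X. The comparison of chromosomes was chosen with earlier results known, neighbouring genes are not independent, and copy number was not measured.

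**Figure D5:**
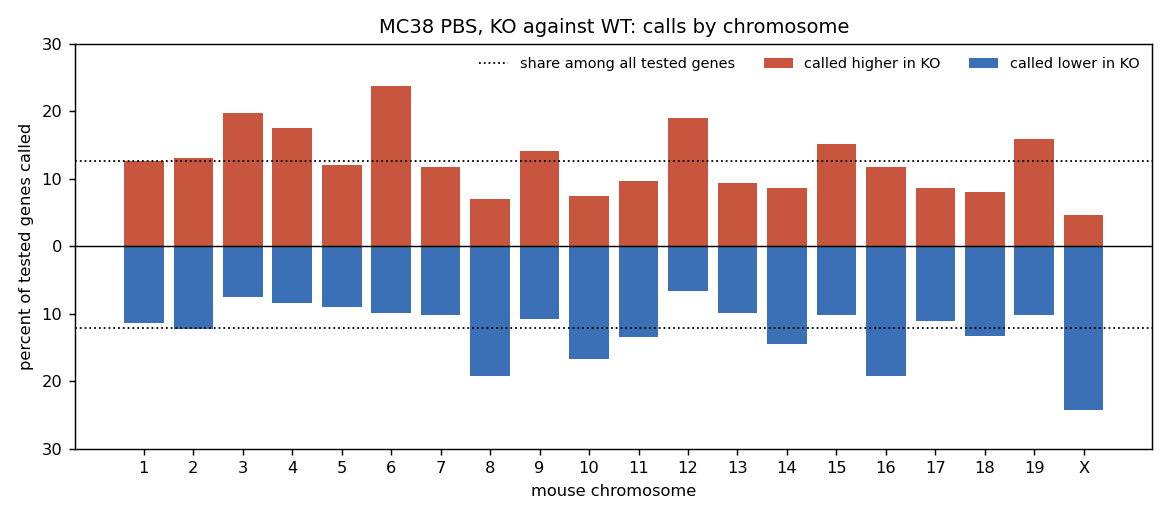
Percent of tested genes called higher and lower in KO on each chromosome under PBS, with lines at the shares of all tested genes, 12.6% and 12.1%. Chromosomes 6, 3 and 12 lean to higher and chromosomes X, 8 and 10 to lower.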

How the data were processed

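RNA was measured by sequencing in whole tumours, with total RNA extracted with Trizol and standard Illumina libraries per the labels' protocols. The deposited values were taken as FPKM that the authors computed. They are not whole numbers, and their sums differ between libraries. The submitters' processing notes name FastQC, STAR 2.5, Cuffnorm, DESeq and mm10, with no role or order, and strand, read length and RNA selection are not given in the sources used here. Of the low values, 22.9% to 31.3% lay within 0.02 of whole multiples of one amount per library, so counts were not rebuilt, the depth is unknown and the number of libraries limits the precision. Of 55335 gene IDs, 55154 matched the GENCODE annotation of the same build. Groups came from the labels.

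Genes that reached 1 FPKM in 3 or more of the 6 PBS libraries were tested on log2(FPKM + 1) with limma 3.58.1 in R 4.3.3, with a mean-variance trend and Benjamini-Hochberg adjustment. The fit held the 12 MC38 libraries with 1 mean per group. Its contrasts gave the effect under PBS, the effect under anti-PD-1 and their difference. A fit of all 24 libraries gave the effect in B16 and the difference between lines. For these, genes that reached 1 FPKM in 3 or more of the 12 PBS libraries of both lines were tested. The members and the 67 gene lists were chosen with earlier results of these data known. Genes were named by a rule: Chek2, the 10 largest rises and falls among called genes without overlap and with at least 1 FPKM, the 6 largest of each among genes with at least 50 FPKM, up to 2 called members per list and direction, up to 2 more members for their role, and the 4 largest differences from anti-PD-1 and from B16 in each direction. Epcam, Cdx2, Foxp3, Jag1, Notch1 and single values that serve a comparison were chosen after their values were seen where that rule did not take them. For promoters the rule took up to 2 members per list with the largest difference among those holding the motif. Alternatives were 9 other settings (pseudocounts of 0.1 and 0.5, a minimum of 5 FPKM, no filter, no trend, quantile normalization, protein-coding genes alone, fewer or more libraries in the fit) and leaving out each library. The steps were tested on simulated data. A few genes that the rule named are not reported here.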

Additional observations from a re-analysis of the deposited data

Results flagged for a closer look

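The effect of the knock-out differed between treatments or between lines, by a test of the difference itself, for the following results. Between PBS and anti-PD-1 the limma test of the difference called 382 of 13391 genes, and between MC38 and B16 under PBS it called 1495 of 14735. The values below are differences of 2 log2 effects ± their standard error, with limma's adjusted p.

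For the small RNAs the difference between treatments was positive, higher under PBS: 3.41 ± 0.48 for Rn7s6 (adjusted p = 0.0115), 3.27 ± 0.41 for n-R5-8s1 (adjusted p = 0.00814), 3.19 ± 0.70 for Rn7s1 (adjusted p = 0.0417) and 1.92 ± 0.42 for Rny1, a Y RNA (adjusted p = 0.0435). It was negative for Igf2 (−2.65 ± 0.55, adjusted p = 0.0359), H2-Aa (−2.47 ± 0.46, adjusted p = 0.0284), H2-Eb1 (−2.35 ± 0.46, adjusted p = 0.0312) and Klrd1 (−2.23 ± 0.46, adjusted p = 0.0353). Rn7s6 and n-R5-8s1 stayed called without each library in turn, but Rn7s6 was tested only through the KO libraries under PBS, where it was high. Each of the other 6 lost its call without any of several libraries, with a highest adjusted p over all alternatives of 0.126 for Rn7s1 and Rny1, 0.110 for Igf2, 0.0884 for H2-Aa, 0.0975 for H2-Eb1 and 0.109 for Klrd1. Igf2 averaged 0.836 FPKM in WT tumours under anti-PD-1 and 0.349 in KO, against 5.41 to 14.1 in the WT libraries under PBS. It was tested only through those WT libraries under PBS, where it was high.

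Between lines the difference was positive for n-R5-8s1 (4.70 ± 0.39, adjusted p = 7.71e-07), Mmp10 (3.38 ± 0.41, adjusted p = 4.88e-05), Rn7s1 (3.29 ± 0.68, adjusted p = 0.00517) and Bmp5 (2.89 ± 0.22, adjusted p = 3.2e-07). It was negative for Igf2 (−3.09 ± 0.42, adjusted p = 0.000128), Pttg1ip (−2.87 ± 0.68, adjusted p = 0.0118), Grb10 (−2.85 ± 0.36, adjusted p = 8.19e-05) and Krcc1 (−2.66 ± 0.75, adjusted p = 0.0303). Bmp5 and Igf2 were listed at 0 in every B16 library, so their difference restates the MC38 effect and is no separate comparison of lines. The first 7 stayed called without each library in turn. Krcc1, which encodes a protein rich in lysine, was not called in MC38 alone (−1.02, adjusted p = 0.226), where WT replicate 3 was at 57.9 FPKM and WT replicates 1 and 2 at 15.8 and 19.7. Its difference was not called without MC38 WT replicate 3 (adjusted p = 0.0819), and it was also lost without any 1 of the B16 WT replicates, B16 KO replicates 1 and 3 and MC38 KO replicates 1 and 3 (0.0514 to 0.0606).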

How the results depend on the processing

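No paired analysis was possible because the labels number no replicates, and the numbers used here follow accession order. The 3306 called genes became 2112 to 2851 when 1 library was left out (1096 to 1538 higher, 1016 to 1451 lower), lowest without WT replicate 2. The other 9 settings gave 2373 to 3332, and all stayed within 1.5 times. The 382 genes that differed between treatments became 56 to 723 without 1 library (13 to 172 higher, 40 to 551 lower) and 45 with no filter on low values (14 higher, 31 lower), where more genes are tested, so that count depends on single libraries and on the filter. The 1495 genes that differed between lines became 925 to 1403 without 1 library (582 to 922 higher, 331 to 481 lower), and the 538 lower ones were 350 with a minimum of 5 FPKM. Of the 183 named genes, 119 kept their side of the threshold under every alternative and 62 changed it under at least 1. The other 2, Atf4 and Pkm, were never called and changed sign: Atf4 ranged from −0.0594 to 0.0408 without 1 library and stood at 0.0353 with protein-coding genes alone and 0.0781 after quantile normalization, where Pkm stood at 0.0692. The cause was not tested. Depth is unknown, so it is not known which low genes were limited by it.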
